A study of Mus musculus with 8 samples.

Results

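Peroxisomal genes were followed in whole-liver RNA sequencing of mice with a liver-specific knockout of E4bp4 (E4bp4-LKO, 4 mice numbered 143, 144, 145 and 179) and of wild-type mice (WT, 4 mice numbered 164, 165, 166 and 167). E4BP4, encoded by Nfil3, is a basic leucine zipper transcriptional repressor. All 8 mice were put on a diet that induces non-alcoholic steatohepatitis (NASH) when 2 months old and stayed on it for 20 weeks, so that no liver without the diet served as a comparison. The labels name neither the driver of the knockout nor the sex, strain, litter or cage of the mice. The members were a list of 45 genes listed by symbol for their peroxisomal role, with earlier results of these data known, from 16796 genes listed in the files: 33 enzymes and carriers and 12 peroxins (Pex genes). Of the 45, 44 had enough counts to be tested, within a table of 13244 genes. Dao, the D-amino acid oxidase, was the exception. It had no entry in 7 livers, which was read as 0, and a single count in WT mouse 167, below the floor of 3 counts, and was not tested.

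Peroxisomes are single-membrane organelles that shorten fatty acids which mitochondria handle poorly, such as very long, branched and dicarboxylic chains. Acyl chains are linked to coenzyme A (CoA), enter through ABC half-transporters, and lose carbon atoms by beta-oxidation or, where a methyl branch blocks it, by alpha-oxidation. Hydrogen peroxide from the oxidases is removed by catalase, peroxins insert membrane proteins and import the enzymes, and in rodent liver many of the genes are induced through the nuclear receptor PPAR-alpha.

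Of the 44 tested members, 7 were higher in E4bp4-LKO livers at an adjusted p under 0.05, 1 was lower and 36 did not pass. They were Nudt7, Hacl1, Pecr, Ehhadh, Abcd3, Hao1 and Phyh on the higher side and the ABC half-transporter gene Abcd2 on the lower side. Across all 13244 genes tested, 10.8% passed in either direction, 4.36% as higher and 6.48% as lower, whereas 15.9% of the tested members were higher and 2.27% lower. The median log2 fold change (E4bp4-LKO over WT) was 0.22 over the members and 0.01 over all genes tested. Above 0 lay 38 of the 44 members and 6850 of the 13244 genes. All knockout livers lay above all WT livers for 12 members, against 8.80% of all genes tested, and below them for 1 member, against 9.68%. The 12 were the 7 called genes and Acaa1b, Amacr, Slc27a2, Cat and Pipox. All 8 called genes were enzymes or carriers, and 0 of 12 peroxins passed with edgeR. DESeq2 also called 0, and 3 of the 12 had an unadjusted p under 0.05, a share no higher than the 28.3% of all genes tested. Under DESeq2, 11 members were higher and 1 lower, against 7.33% of all genes higher and 9.57% lower. With libraries scaled by their totals, 6 members were higher and 2 lower, against 2.20% of all genes higher and 12.5% lower, and the median over the members was 0.08 against -0.15 over all genes. Without WT mice 164 and 165, 2 members were higher and 1 lower, and 2.89% of all genes passed, 1.36% as higher and 1.53% as lower. Members above 0 numbered 27 without these mice, against 6969 of 13377 genes. With library totals they also numbered 27, against 3096 of 13244 genes.

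**Figure D1:**
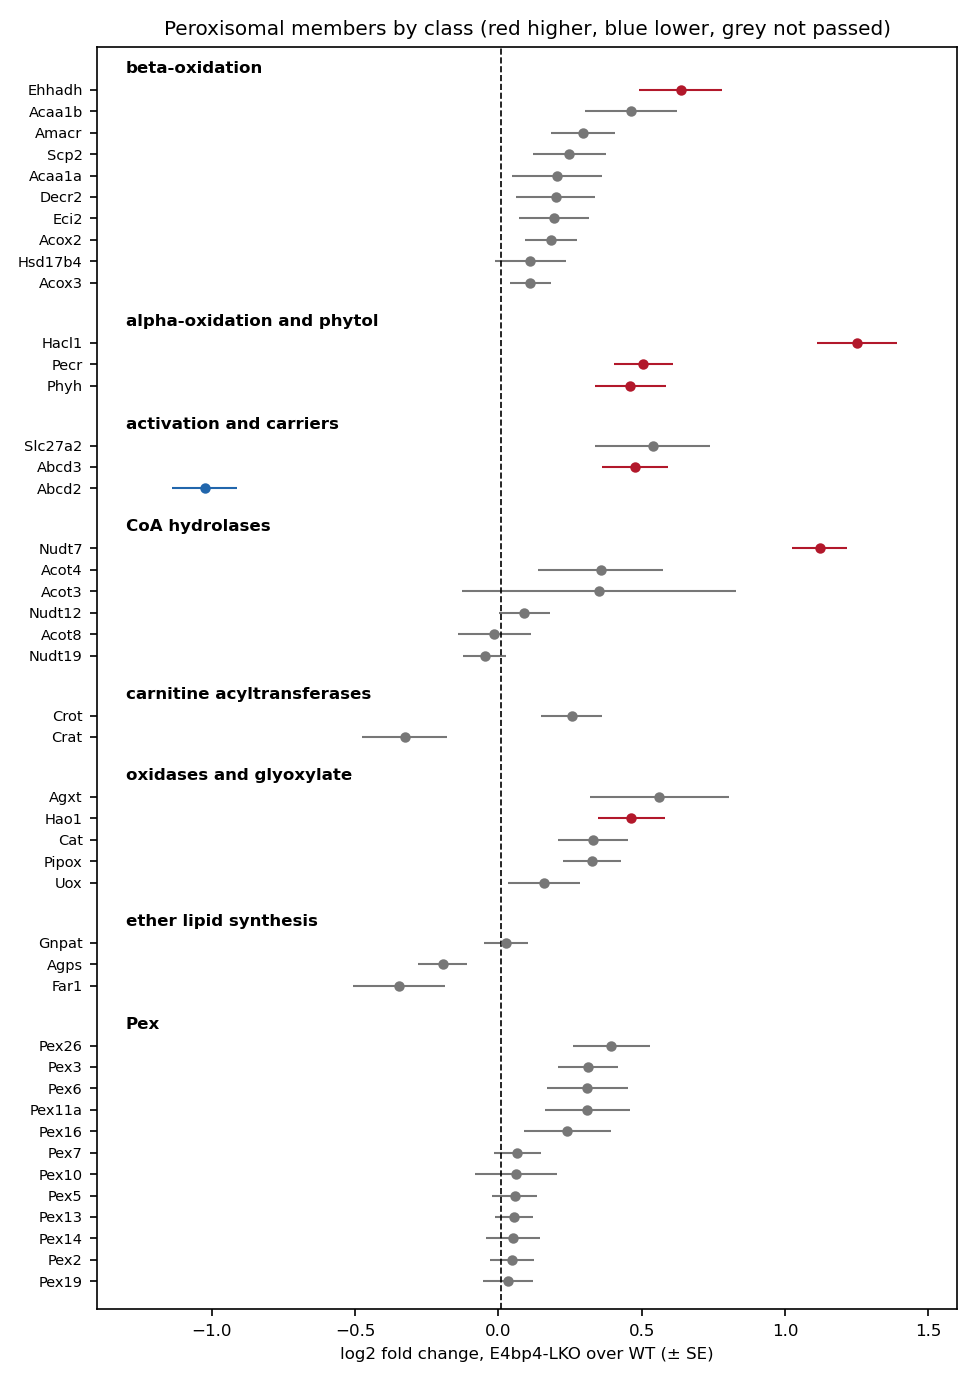
Log2 fold change (E4bp4-LKO over WT, x axis) of the 44 tested members with its standard error (bars), grouped by role; red marks higher, blue lower and grey not passed at an adjusted p of 0.05. The dashed line is the median of all genes tested (0.01). The 3 alpha-oxidation genes were all red, Abcd2 was the single blue point, and the 12 peroxins were all grey.

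The libraries held 23805540 to 32290265 expected counts, so 3 counts stood for 0.0929 to 0.126 CPM (counts scaled to a common library size), for counting error only. Levels below are CPM after TMM scaling, in mouse order 143, 144, 145 and 179 for E4bp4-LKO and 164, 165, 166 and 167 for WT, with n = 4 per group throughout. Nfil3 stood at 3.33, 6.22, 6.14 and 3.35 CPM in E4bp4-LKO livers, against 11.4, 8.79, 12.1 and 16.5 CPM in WT livers (log2 fold change -1.35, SE 0.26, adjusted p = 0.0121 by edgeR's quasi-likelihood test). The groups did not overlap, with p = 0.0286 in an exact two-sided permutation test, the smallest that 70 arrangements allow. Along the first principal component (52.7% of the variance) the WT livers were spread, from 49.3 and 30.1 for mice 164 and 165 to 11.1 and 10.4 for mice 166 and 167, whereas E4bp4-LKO livers lay between -31.2 and -19.2. WT mouse 164 was the lowest of the 8 livers for 33 of the 44 tested members (75%), against 22.5% of all genes tested. Because the samples are whole liver, fewer cells of a type and less RNA per cell cannot be told apart. Among the marker lists (the plot of list levels by liver), hepatocyte markers summed to 98203 to 120641 CPM in E4bp4-LKO livers and 73398 to 98150 CPM in WT livers, and 1 of 14 tested was higher (Serpina1c). Of the 14, 13 had log2 fold changes above 0, with a median of 0.26, against 0.22 over the peroxisomal members. An unadjusted p under 0.05 was reached by 7 of them in edgeR, and DESeq2 called 4 higher and 1 lower. Stellate and myofibroblast markers summed to 526 to 733 CPM in E4bp4-LKO livers and 847 to 1614 CPM in WT livers, with 7 of 12 lower, and macrophage markers to 669.6 to 872 CPM in E4bp4-LKO livers and 908 to 1257 CPM in WT livers, also with 7 of 12 lower. The macrophage markers were mixed, with log2 fold changes from -1.99 to 1.76 and 2 of 12 above 0. All knockout livers lay below all WT livers for 7 of them (against 9.68% of all genes) and above for 1 (against 8.80%). DESeq2 called 1 macrophage marker higher and 7 lower. Cholangiocyte markers summed to 78.2 to 105 CPM in E4bp4-LKO livers and 192 to 475 CPM in WT livers, with 1 of 6 tested lower (edgeR). All 6 had log2 fold changes below 0 (median -1.21) and an unadjusted p under 0.05 in edgeR, and DESeq2 called 3 lower. Of endothelial markers 0 of 9 passed, and of lymphocyte markers 0 of 10 (edgeR; 2 and 1 at an unadjusted p under 0.05, 2 and 0 with DESeq2). The part of these markers in the results on peroxisomal genes was not tested. Nnt, the mitochondrial transhydrogenase gene that carries a deletion in C57BL/6J mice, stood at 285 ± 22.0 CPM in E4bp4-LKO livers and 86.9 ± 3.66 CPM in WT livers (SD), and with no strain given a difference in genetic background and the knockout cannot be told apart.

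The 3 genes of alpha-oxidation and phytol breakdown were all higher in E4bp4-LKO livers, with a median log2 fold change of 0.50. Hacl1 encodes the 2-hydroxyacyl-CoA lyase that cleaves the hydroxylated chain in alpha-oxidation. It stood at 127, 162, 167 and 165 CPM in E4bp4-LKO livers, against 66.1, 59.7, 52.4 and 82.6 CPM in WT livers. The lowest knockout liver, mouse 143, lay well above the highest WT liver, mouse 167. The mean was 155 ± 19.0 CPM in E4bp4-LKO livers and 65.2 ± 12.9 CPM in WT livers (SD), 2.38-fold higher (log2 fold change 1.25, SE 0.14, adjusted p = 0.00116, edgeR). Phyh, the phytanoyl-CoA hydroxylase of the step before it, had 1787, 1839, 1710.2 and 1902 CPM in E4bp4-LKO livers, against 1043, 1289.9, 1473 and 1459 CPM in WT livers. The knockout livers were close together, and the WT livers ran down to mouse 164 without reaching them. The change in Phyh was 1.38-fold (log2 fold change 0.46, SE 0.12, adjusted p = 0.0393, edgeR). Pecr encodes the peroxisomal trans-2-enoyl-CoA reductase, which acts in the conversion of phytol to phytanic acid. It had 113, 137, 137 and 149 CPM in E4bp4-LKO livers, against 81.4, 94.0, 96.8 and 106 CPM in WT livers. These groups did not overlap either, although E4bp4-LKO mouse 143 was close to WT mouse 167 (1.42-fold, log2 fold change 0.50, SE 0.10, adjusted p = 0.0144, edgeR). Together the 3 genes took 0.199 ± 0.00789% of the expected counts in E4bp4-LKO livers and 0.155 ± 0.0116% in WT livers (SD).

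Hacl1 passed in all 16 alternative fits, with adjusted p up to 0.0245. Pecr passed in all but the fit without WT mice 164 and 165 (log2 fold change 0.41, adjusted p = 0.0745, edgeR), whereas Phyh missed the threshold in that fit and in those without any 1 of the E4bp4-LKO mice or without WT mouse 165 (adjusted p up to 0.106, edgeR).

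Nudt7 encodes a CoA diphosphatase that degrades CoA and acyl-CoA inside the organelle, and was higher in E4bp4-LKO livers by 2.17-fold. Its levels were 386, 338, 359 and 350.3 CPM in E4bp4-LKO livers, against 154, 145, 184 and 177 CPM in WT livers. The groups were far apart, with means of 358 ± 20.1 CPM in E4bp4-LKO livers and 165 ± 18.4 CPM in WT livers (SD, log2 fold change 1.12, SE 0.10, adjusted p = 0.000200, edgeR). Nudt7 passed in all 16 alternative fits, with adjusted p up to 0.00159.

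The other 5 CoA and nucleotide hydrolases did not pass. Nudt19, a second CoA diphosphatase, had 50.2, 62.1, 57.3 and 52.2 CPM in E4bp4-LKO livers, against 57.5, 56.4, 57.7 and 58.0 CPM in WT livers, with a log2 fold change of -0.05 (SE 0.08). The knockout livers surrounded the WT livers. On the deposited FPKM scale, which is per transcript length, the ratio of Nudt7 to Nudt19 was 11.1 ± 1.75 in E4bp4-LKO livers and 4.94 ± 0.502 in WT livers (SD). Nudt12, an NADH diphosphatase, had 61.3, 59.1, 59.9 and 69.5 CPM in E4bp4-LKO livers, against 50.3, 59.3, 59.7 and 65.3 CPM in WT livers (log2 fold change 0.09, SE 0.09, adjusted p = 0.557, edgeR). The groups overlapped, and the fold change was negative under library totals and on FPKM. Acot4, an acyl-CoA thioesterase of dicarboxylic chains, had 60.5, 48.8, 66.8 and 72.7 CPM in E4bp4-LKO livers, against 31.8, 40.0, 57.7 and 64.8 CPM in WT livers (log2 fold change 0.36, SE 0.22, adjusted p = 0.322, edgeR). Its WT livers differed among themselves by more than the groups did, with mice 166 and 167 inside the knockout range. The thioesterase Acot3 varied widely, between 38.5 and 72.5 CPM in E4bp4-LKO livers and between 18.2 and 73.1 CPM in WT livers. Acot8, a thioesterase of broad chain length, averaged 14.1 ± 0.774 CPM in E4bp4-LKO livers and 14.3 ± 2.76 CPM in WT livers (SD). Acot3 and Acot4 are closely related copies and had fractional counts in all 8 libraries, so their split of reads is uncertain.

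**Figure D2:**
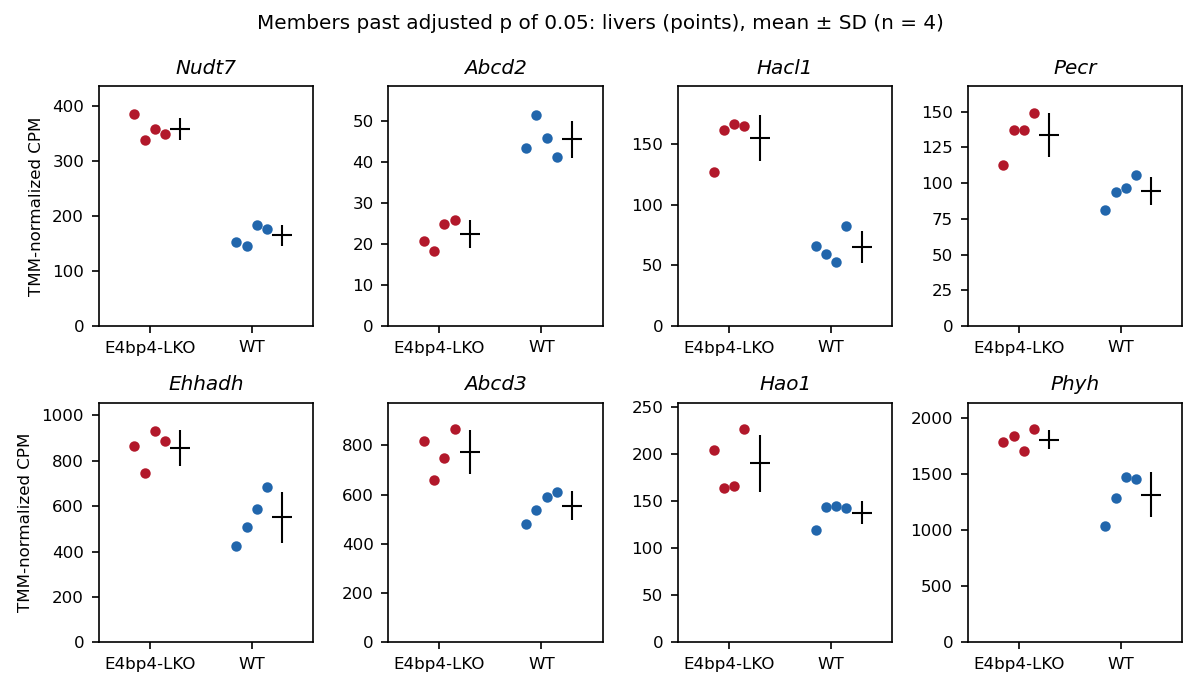
TMM-normalized CPM (y axis) of the 8 members past an adjusted p of 0.05 in each liver (points), with mean ± SD of 4 livers beside them; E4bp4-LKO is left of WT in every panel. The groups did not overlap in any of the 8 panels, with the widest gaps in Nudt7, Hacl1 and Abcd2 and the narrowest in Ehhadh, Abcd3, Hao1 and Pecr.

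The ABC half-transporters of the peroxisomal membrane differed in direction. Abcd3, also called PMP70, carries branched and dicarboxylic acyl-CoA and is a major peroxisomal membrane protein of liver. It had 818, 659.7, 749 and 866 CPM in E4bp4-LKO livers, against 481, 539, 589.7 and 612 CPM in WT livers. The lowest knockout liver, mouse 144, was just above WT mouse 167, and the change was 1.39-fold (log2 fold change 0.48, SE 0.12, adjusted p = 0.0273, edgeR). Abcd2, whose protein carries very long polyunsaturated acyl-CoA, had 20.7, 18.3, 24.9 and 25.8 CPM in E4bp4-LKO livers, against 43.5, 51.6, 45.9 and 41.3 CPM in WT livers. All 4 knockout livers lay below all WT livers. The mean was 22.4 ± 3.50 CPM in E4bp4-LKO livers and 45.6 ± 4.44 CPM in WT livers (SD), 2.03-fold lower (log2 fold change -1.02, SE 0.11, adjusted p = 0.00102, edgeR). Its counts were fractional in all 8 libraries, so some of its reads were shared with another transcript or gene. Abcd2 passed in all 16 alternative fits, with adjusted p up to 0.00553. Abcd3 missed the threshold without WT mice 164 and 165 (log2 fold change 0.37, adjusted p = 0.113), without WT mouse 165, and without any 1 of E4bp4-LKO mice 143, 145 and 179 (edgeR).

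Per transcript length, Abcd3 was the more abundant of the pair in every liver. The ratio of Abcd3 to Abcd2 in FPKM was 64.7, 58.9, 49.3 and 55.0 in E4bp4-LKO livers, against 18.1, 17.1, 21.0 and 24.2 in WT livers. The ranges did not overlap. Abcd4, which despite its name serves lysosomal cobalamin export, missed the threshold (log2 fold change 0.08, SE 0.11, adjusted p = 0.686, edgeR).

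Slc27a2, a very-long-chain acyl-CoA synthetase that links free fatty acids to CoA, had 1632, 1952, 1838 and 1865 CPM in E4bp4-LKO livers, against 767, 1139, 1498 and 1615 CPM in WT livers. The groups did not overlap, but WT mouse 167 came close to E4bp4-LKO mouse 143, and the spread within WT was wide. The gene did not pass with edgeR (log2 fold change 0.54, SE 0.20, adjusted p = 0.108). It passed with DESeq2 (adjusted p = 0.0336) and in the fit without WT mouse 167, and its log2 fold change was 0.23 without WT mice 164 and 165.

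**Figure D3:**
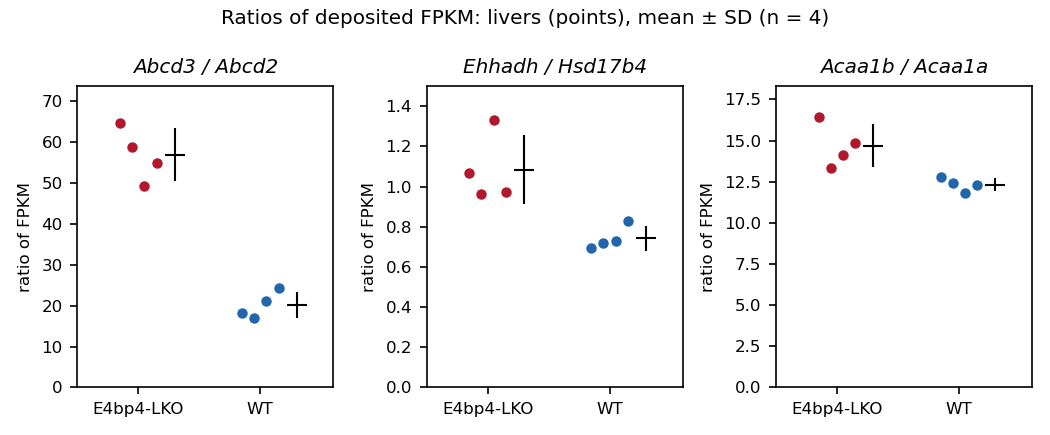
Ratio of deposited FPKM (y axis) for 3 pairs of members in each liver (points), with mean ± SD of 4 livers; E4bp4-LKO is left of WT. Abcd3 over Abcd2 averaged 57.0 in E4bp4-LKO and 20.1 in WT livers, and Ehhadh over Hsd17b4 1.08 in E4bp4-LKO and 0.742 in WT livers. Acaa1b over Acaa1a averaged 14.7 in E4bp4-LKO and 12.3 in WT livers, with an uncertain split of reads between these copies. The groups did not overlap in these 3 pairs, but they did for Hao1 over Agxt, which is not drawn.

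Of 10 members that act in beta-oxidation, Ehhadh alone passed, although all 10 had log2 fold changes above 0 (0.11 to 0.64, median 0.20). Under library totals and on FPKM 8 of the 10 were above 0, and without WT mice 164 and 165 this was so for 7. Ehhadh encodes the L-bifunctional protein, which hydrates and then dehydrogenates enoyl-CoA and is a classical PPAR-alpha target in rodents. It had 863, 747, 930.1 and 885 CPM in E4bp4-LKO livers, against 423, 508, 589 and 686 CPM in WT livers. Separation was complete, and the WT livers were more spread than the knockout livers (1.55-fold, log2 fold change 0.64, SE 0.14, adjusted p = 0.0224, edgeR). The call was lost without WT mice 164 and 165, without WT mouse 165, and without E4bp4-LKO mouse 145 or 179 (adjusted p up to 0.0709, edgeR). Hsd17b4, the D-bifunctional protein that carries out the same pair of steps with opposite stereochemistry, averaged 711 ± 77.2 CPM in E4bp4-LKO livers and 658 ± 89.2 CPM in WT livers (SD, log2 fold change 0.11, SE 0.12). The ratio of Ehhadh to Hsd17b4 in FPKM was 1.07, 0.961, 1.33 and 0.975 in E4bp4-LKO livers, against 0.693, 0.718, 0.727 and 0.830 in WT livers. The Hsd17b4 transcript was thus the more abundant of the pair per length in all WT livers, and the order was mixed in the knockout livers.

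The peroxisomal 3-ketoacyl-CoA thiolases, which release acetyl-CoA in the last step, did not pass. Acaa1b had 3134, 2732, 2961 and 2982 CPM in E4bp4-LKO livers, against 1661, 1764, 2476 and 2676 CPM in WT livers. The highest WT liver, mouse 167, lay just under the lowest knockout liver, mouse 144 (log2 fold change 0.46, SE 0.16, adjusted p = 0.0871, edgeR). Acaa1b passed with DESeq2 (adjusted p = 0.0192) and without WT mouse 167, and its log2 fold change was 0.20 without WT mice 164 and 165. Acaa1a had 201, 216, 221 and 212 CPM in E4bp4-LKO livers, against 137, 149.9, 221 and 229.5 CPM in WT livers, and the groups overlapped (log2 fold change 0.20, SE 0.16). The 2 thiolase genes are closely related copies with fractional counts in 7 of 8 libraries, so how their reads were split is uncertain. As deposited, Acaa1b exceeded Acaa1a 14.7 ± 1.31-fold in FPKM in E4bp4-LKO livers and 12.3 ± 0.404-fold in WT livers (SD). Amacr, the racemase that prepares branched chains and bile acid intermediates, had 144, 164, 159 and 147 CPM in E4bp4-LKO livers, against 100.4, 118, 142 and 141 CPM in WT livers. Its groups were separated by little, and it missed the threshold (log2 fold change 0.29, SE 0.11, adjusted p = 0.110, edgeR).

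The other 5 beta-oxidation members had log2 fold changes of 0.11 to 0.25 and overlapping groups. Scp2, whose locus encodes the sterol carrier protein and the SCPx thiolase, averaged 4789.8 ± 435 CPM in E4bp4-LKO livers and 4035 ± 490.4 CPM in WT livers (SD). It was the most abundant member per length, with 1694 ± 157 FPKM in E4bp4-LKO livers and 1582 ± 91.7 FPKM in WT livers. The branched-chain oxidase genes Acox2 and Acox3 averaged 226 ± 22.2 and 43.7 ± 1.82 CPM in E4bp4-LKO livers and 199 ± 13.1 and 40.4 ± 2.84 CPM in WT livers. Decr2 and Eci2, the auxiliary reductase and isomerase for unsaturated chains, had log2 fold changes of 0.20 (SE 0.14) and 0.19 (SE 0.12).

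The 2 carnitine acyltransferases, which make shortened chains exportable, did not pass and had fold changes of opposite sign. Crot, the octanoyltransferase, had 519, 662, 558 and 622 CPM in E4bp4-LKO livers, against 439.9, 523, 528 and 487 CPM in WT livers (log2 fold change 0.26, SE 0.11, adjusted p = 0.141, edgeR). E4bp4-LKO mouse 143 lay inside the WT range. Crat, the acetyltransferase that also works in mitochondria, had 102, 89.7, 88.8 and 124 CPM in E4bp4-LKO livers, against 96.8, 119, 139 and 152 CPM in WT livers (log2 fold change -0.33, SE 0.15, adjusted p = 0.174, edgeR). Its groups overlapped, but it passed as lower when libraries were scaled by their totals (log2 fold change -0.47, adjusted p = 0.0273, edgeR) and on FPKM. The ratio of Crot to Crat in FPKM was 9.37 ± 1.75 in E4bp4-LKO livers and 6.27 ± 0.958 in WT livers (SD).

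Among the oxidases and glyoxylate enzymes, Hao1 alone passed of 5 tested. Hao1 encodes glycolate oxidase, which turns glycolate into glyoxylate and releases hydrogen peroxide. It had 205, 164, 166 and 227 CPM in E4bp4-LKO livers, against 119.6, 144, 145 and 143 CPM in WT livers. The knockout livers fell into a higher pair, mice 143 and 179, and a lower pair that stayed above WT (1.38-fold, log2 fold change 0.46, SE 0.12, adjusted p = 0.0308, edgeR). This call was lost in 8 of 16 alternative fits: library totals (adjusted p = 0.0729, edgeR), both FPKM fits, without WT mice 164 and 165 (adjusted p = 0.144, edgeR), and without any 1 of E4bp4-LKO mice 143 and 179 and WT mice 164 and 165. Agxt, the aminotransferase that detoxifies glyoxylate, had 74.7, 118, 139 and 67.0 CPM in E4bp4-LKO livers, against 52.7, 60.5, 80.2 and 77.4 CPM in WT livers. The knockout mice with high Agxt, 144 and 145, were those with the lower Hao1, and the gene missed the threshold (log2 fold change 0.56, SE 0.24, adjusted p = 0.168, edgeR). The ratio of Hao1 to Agxt in FPKM was 1.66 ± 0.806 in E4bp4-LKO livers and 1.58 ± 0.222 in WT livers (SD), with overlap. For none of the ratios of members was a share over other gene pairs computed.

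Cat, the gene of catalase, had 3808, 3893, 3865 and 4034 CPM in E4bp4-LKO livers, against 2527, 3035, 3431 and 3430 CPM in WT livers. No WT liver reached the knockout range, and the knockout livers were close together (log2 fold change 0.33, SE 0.12, adjusted p = 0.107, edgeR). Pipox, an oxidase of pipecolic acid and sarcosine, had 186, 223, 225 and 224 CPM in E4bp4-LKO livers, against 143, 177, 179.8 and 183 CPM in WT livers. One liver stood below the rest in each group without closing the gap, mouse 143 in E4bp4-LKO and mouse 164 in WT (log2 fold change 0.33, SE 0.10, adjusted p = 0.0613, edgeR). With DESeq2, Cat and Pipox passed as higher (adjusted p = 0.0148 and 0.0182). Pipox also passed in edgeR without E4bp4-LKO mouse 143, and the log2 fold change of Cat was 0.19 without WT mice 164 and 165. Uox, the urate oxidase that mice keep and humans have lost, averaged 2026 ± 289 CPM in E4bp4-LKO livers and 1815 ± 152 CPM in WT livers (SD) and overlapped.

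The genes of ether lipid synthesis, the peroxisomal start of plasmalogen production, did not pass, with a median log2 fold change of -0.20. Agps, the alkylglycerone phosphate synthase, had 16.8, 15.3, 14.8 and 16.6 CPM in E4bp4-LKO livers, against 20.3, 18.1, 17.7 and 16.4 CPM in WT livers (log2 fold change -0.20, SE 0.09, adjusted p = 0.169, edgeR). Only WT mouse 167 lay inside the knockout range. Far1, the fatty acyl-CoA reductase, had 4.85, 3.72, 4.15 and 4.78 CPM in E4bp4-LKO livers, against 6.88, 5.83, 4.63 and 4.86 CPM in WT livers, and the groups overlapped through WT mouse 166 (log2 fold change -0.35, SE 0.16, adjusted p = 0.180, edgeR). Gnpat, which acylates dihydroxyacetone phosphate first, averaged 54.7 ± 3.21 CPM in E4bp4-LKO livers and 53.7 ± 4.38 CPM in WT livers (SD). Per length Far1 and Agps were scarce, Far1 at 0.945 ± 0.118 FPKM in E4bp4-LKO livers and 1.35 ± 0.356 FPKM in WT livers, and Agps at 2.01 ± 0.135 FPKM in E4bp4-LKO livers and 2.58 ± 0.423 FPKM in WT livers (SD). Gnpat was higher per length, at 17.2 ± 0.917 FPKM in E4bp4-LKO livers and 18.8 ± 0.411 FPKM in WT livers (SD).

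**Figure D4:**
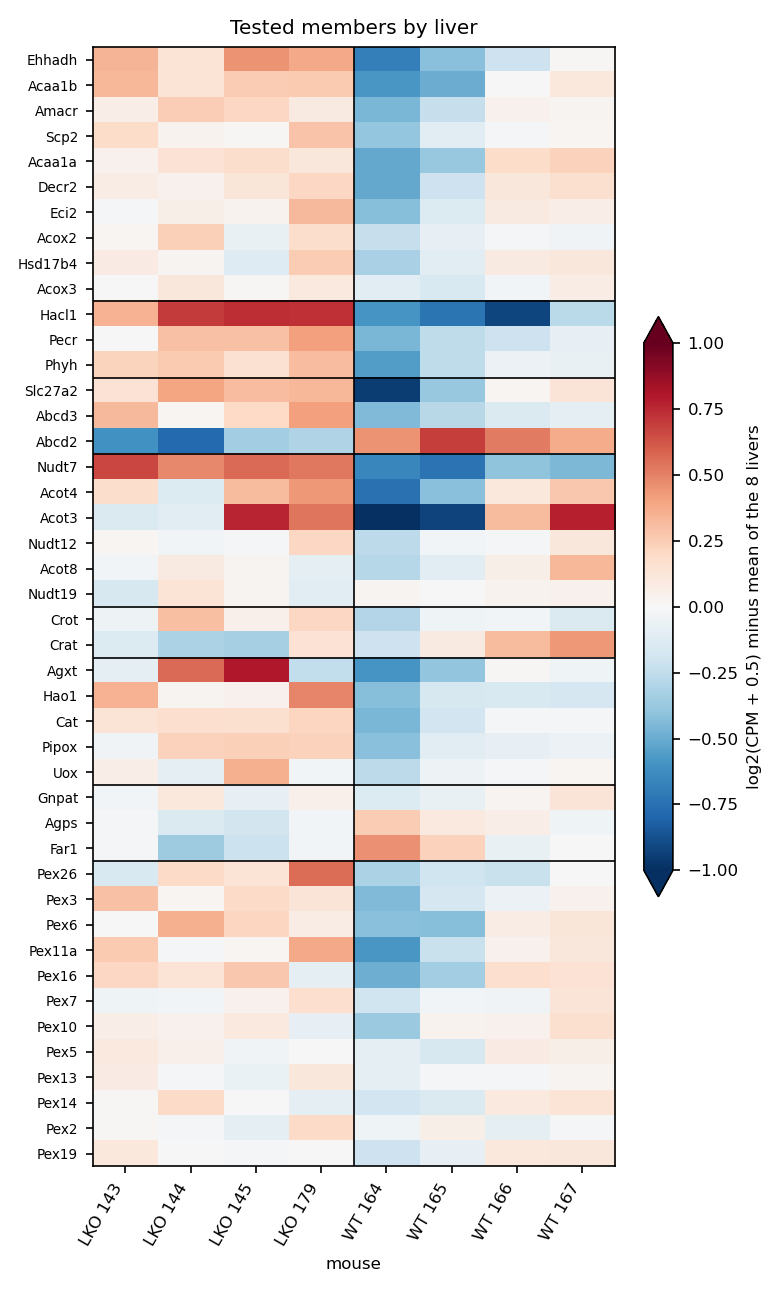
Log2(CPM + 0.5) of the 44 tested members in each liver minus the gene's mean over the 8 livers (colour, red above and blue below), with E4bp4-LKO livers left of the vertical line and WT livers right of it, rows grouped by role; the colour scale ends at 1 in either direction. WT mouse 164 was the lowest liver for 33 of the 44 rows, and the rows of Hacl1, Nudt7 and Abcd2 changed colour at the line in every liver.

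The 12 peroxins had a median log2 fold change of 0.06 (range 0.03 to 0.39) and did not pass. All 12 were above 0 with TMM scaling, but 7 of 12 were below 0 under library totals and on FPKM (medians -0.09, -0.08 and -0.08), and 6 of 12 without WT mice 164 and 165. The smallest p values belonged to Pex3 and Pex26. Pex3, which receives membrane proteins on the organelle and is needed to form it, had 45.5, 37.6, 42.3 and 40.7 CPM in E4bp4-LKO livers, against 27.1, 33.0, 35.7 and 38.2 CPM in WT livers (log2 fold change 0.31, SE 0.10, adjusted p = 0.0791, edgeR). WT mouse 167 lay above E4bp4-LKO mouse 144. Pex26, which anchors the export complex of the import receptor, had 25.4, 32.3, 31.1 and 41.9 CPM in E4bp4-LKO livers, against 22.6, 24.5, 24.0 and 28.1 CPM in WT livers (log2 fold change 0.39, SE 0.14, adjusted p = 0.0861, edgeR). The groups overlapped through E4bp4-LKO mouse 143 and WT mouse 167, and Pex26 passed without the first of these mice and Pex3 without the second.

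Pex6, the ATPase of that export complex, averaged 106 ± 11.9 CPM in E4bp4-LKO livers and 85.7 ± 17.8 CPM in WT livers (SD, log2 fold change 0.31). Pex11a, the peroxin of organelle elongation and division that PPAR-alpha ligands induce in rodents, averaged 102 ± 13.4 CPM in E4bp4-LKO livers and 82.3 ± 17.1 CPM in WT livers (log2 fold change 0.31, SE 0.15, adjusted p = 0.200, edgeR). Pex16, which acts with Pex3 in membrane assembly, had a log2 fold change of 0.24 (SE 0.15). The import receptors Pex5 and Pex7, the docking factors Pex13 and Pex14, the ubiquitin ligases Pex2 and Pex10, and the membrane protein chaperone Pex19 had log2 fold changes of 0.03 to 0.07. Together the peroxins took 0.0881 ± 0.00184% of the expected counts in E4bp4-LKO livers and 0.0886 ± 0.00392% in WT livers (SD). All members took 2.29, 2.17, 2.24 and 2.35% in E4bp4-LKO livers, against 1.78, 1.97, 2.08 and 2.11% in WT livers.

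The mean level of the 32 tested enzymes and carriers, as the difference from the 8-liver mean in log2(CPM + 0.5), was 0.07, 0.09, 0.15 and 0.21 in E4bp4-LKO livers, against -0.37, -0.20, -0.01 and 0.06 in WT livers. WT mice 166 and 167 thus lay near the knockout livers, and mice 164 and 165 below them. The 14 hepatocyte markers had 0.01, 0.25, 0.25 and 0.11 in E4bp4-LKO livers, against -0.42, -0.22, -0.01 and 0.03 in WT livers, with the same WT mice at the low end. For the stellate and myofibroblast markers the values were -0.36, -0.55, -0.22 and -0.35 in E4bp4-LKO livers, against 0.85, 0.34, 0.11 and 0.18 in WT livers, so that WT mouse 164 stood at the opposite end. What these markers contribute to the members' levels was not tested.

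**Figure D5:**
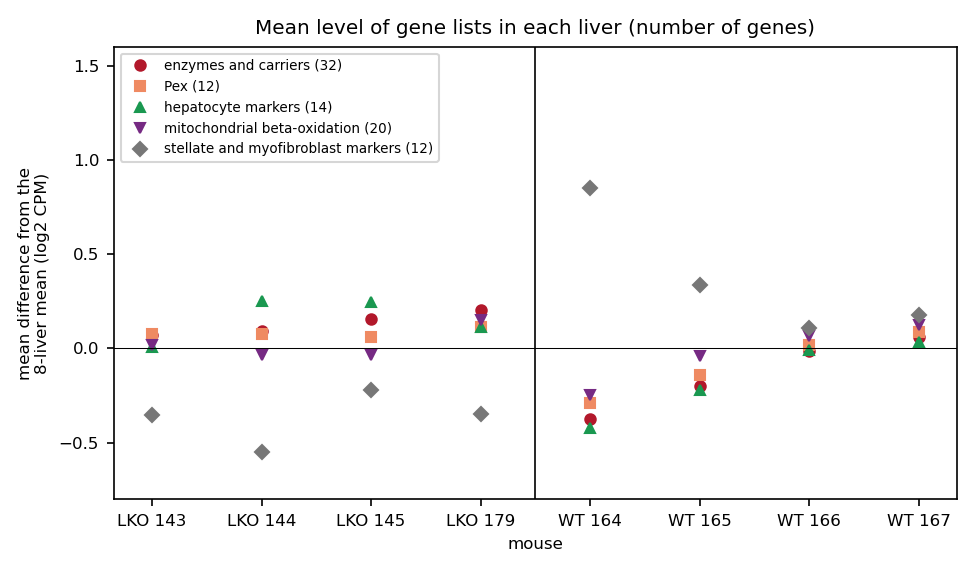
Mean over each gene list (symbols, number of genes in the legend) of the difference from the gene's 8-liver mean in log2(CPM + 0.5) (y axis) for each mouse (x axis; LKO stands for E4bp4-LKO). Enzymes and carriers lay between 0.07 and 0.21 in E4bp4-LKO livers and between -0.37 and 0.06 in WT livers; stellate and myofibroblast markers lay below 0 in all E4bp4-LKO livers and above 0 in all WT livers, highest in WT mouse 164.

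Promoter stretches are shown for 6 of the 7 members called higher, chosen by that call alone. The stretch of Hacl1 is counted but not printed because part of it lies in an annotated transcript. RefSeq (GRCm38.p6) gave windows of 300 bases around transcript starts for 38 of the 45 members, 47 windows in all. The letters of a high-affinity E4BP4 site, TTATGTAA or TTACGTAA on either strand, stood in 0 of these 47 windows and in 1.06% of all 32851 windows. A perfect DR1 direct repeat of the kind PPAR-alpha binds, AGGTCA followed by any 1 base and by AGGTCA again, on either strand, stood in 0 of 47 and in 0.0396% of all windows. The GC box letters GGGCGG on either strand stood in 27 of 47 member windows (57.4%) and in 35.7% of all windows, and the last 100 bases before the start had a median GC content of 63% in members and 55% in all windows. These are letter matches only, in windows that do not cover distal elements, and Abcd2, the lower member, had no window. The E4BP4 and DR1 letters are so rare over all windows that 0 of 47 cannot set the members apart from other genes. The starts are those of RefSeq, and of the 2 windows of Nudt7 and of Abcd3 the most upstream was used. For Pecr, Ehhadh and Phyh the bases just after the start matched no transcript of the gene in GENCODE, a second annotation. The stretches below are the 100 bases before the start, 5′ to 3′ on the gene's strand, with GC boxes in capitals (GGGCGG or its reverse complement CCGCCC).
Nudt7 (chr8:114133474-114133573, plus strand): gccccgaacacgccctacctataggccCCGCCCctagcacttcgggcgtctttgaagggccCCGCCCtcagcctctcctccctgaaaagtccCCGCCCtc
Pecr (chr1:72284322-72284421, minus strand): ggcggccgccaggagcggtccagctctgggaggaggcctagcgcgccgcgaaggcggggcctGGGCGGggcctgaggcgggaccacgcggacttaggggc
Ehhadh (chr16:21787835-21787934, minus strand): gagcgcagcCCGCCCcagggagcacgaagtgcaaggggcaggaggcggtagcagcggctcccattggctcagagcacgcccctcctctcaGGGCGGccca
Abcd3 (chr3:121815303-121815402, minus strand): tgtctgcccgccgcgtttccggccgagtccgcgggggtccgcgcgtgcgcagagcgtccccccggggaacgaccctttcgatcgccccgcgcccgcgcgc
Hao1 (chr2:134554353-134554452, minus strand): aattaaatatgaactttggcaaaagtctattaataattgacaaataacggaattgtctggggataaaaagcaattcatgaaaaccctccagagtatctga
Phyh (chr2:4918896-4918995, plus strand): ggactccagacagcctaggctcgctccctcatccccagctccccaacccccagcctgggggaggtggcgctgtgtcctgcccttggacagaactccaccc
Nudt7 held 3 GC boxes, Ehhadh 2, Pecr 1 and Hacl1 1, and the stretches of Abcd3, Hao1 and Phyh held 0. The GC content was 31% for Hao1, 57% for Hacl1 and 68% to 79% for the other 5.

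Other genes of the organelle were read from 2 further lists. Of 32 tested other peroxisomal enzymes, 2 were higher (6.25%, against 4.36% of all genes) and 0 lower (against 6.48%) with edgeR. Their median log2 fold change was 0.11, and 7 had an unadjusted p under 0.05, below the 28.3% of all genes. All knockout livers lay above all WT livers for 7 (21.9%, against 8.80% of all genes) and below them for 0 (against 9.68%). Under library totals 2 were higher and 2 lower with a median of -0.03, and DESeq2 called 5 higher and 1 lower. Acsl1, a long-chain acyl-CoA synthetase found on several membranes, had 1886, 1721, 1836 and 2551 CPM in E4bp4-LKO livers, against 681, 875, 1197 and 1446 CPM in WT livers. The groups did not overlap, with E4bp4-LKO mouse 179 the highest (1.90-fold, log2 fold change 0.93, SE 0.22, adjusted p = 0.0275, edgeR). Its call was lost without WT mice 164 and 165, without WT mouse 165 and without any 1 of E4bp4-LKO mice 144, 145 and 179 (adjusted p up to 0.0850, edgeR). Slc27a5, the bile acyl-CoA synthetase, and Ide, a protease with a peroxisomal pool, missed the threshold (log2 fold change 0.53 and 0.20, adjusted p = 0.0672 and 0.0837, edgeR).

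Of 18 tested other membrane and biogenesis genes, 0 passed with edgeR, DESeq2 called 2 higher, and 4 had an unadjusted p under 0.05, again below the 28.3% of all genes. Their median log2 fold change was 0.12, and -0.03 under library totals. All knockout livers lay above all WT livers for 2 of the 18 (11.1%, against 8.80% of all genes) and below them for 0. Acbd5, a tether to the endoplasmic reticulum, did not pass (log2 fold change 0.29, adjusted p = 0.0897, edgeR). Neither did Marf1 and the channel gene Pxmp2, with log2 fold changes of 0.20 and 0.39 (adjusted p = 0.134 and 0.161, edgeR).

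A list of 26 PPAR-alpha target genes outside the members had a median log2 fold change of -0.14. With edgeR 0 were higher, against 4.36% of all genes, and 3 were lower (11.5%, against 6.48%). Under library totals 10 of them were lower, in a scaling that moved the median of all genes by -0.16 and called 12.5% of them lower. The 3 lower genes with TMM were Ucp2, the mitochondrial uncoupling protein (80.4 ± 11.3 CPM in E4bp4-LKO livers and 134 ± 26.0 CPM in WT livers, log2 fold change -0.74, adjusted p = 0.0106), Cpt1b, the muscle-type carnitine palmitoyltransferase (log2 fold change -0.72, adjusted p = 0.0164), and Cidec, a lipid droplet protein (log2 fold change -0.63, adjusted p = 0.0385, edgeR). Cyp4a10, a fatty acid omega-hydroxylase widely used as a readout of PPAR-alpha in mice, averaged 322 ± 82.6 CPM in E4bp4-LKO livers and 318 ± 156 CPM in WT livers (SD), and its copy Cyp4a14 averaged 209 ± 93.6 CPM in E4bp4-LKO livers and 235 ± 98.0 CPM in WT livers. Both varied widely within each group, and Cyp4a10 had fractional counts in all 8 libraries. Cyp4a31 missed the threshold (log2 fold change -0.81, adjusted p = 0.0939, edgeR), with its reads also shared. Ucp2 passed in all 16 alternative fits. Cpt1b missed the threshold without WT mouse 165, and Cidec without any 1 of E4bp4-LKO mice 143, 144 and 145 and WT mice 165, 166 and 167.

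Of 11 transcriptional regulators linked to peroxisomal genes, 0 were higher and 1 was lower with edgeR (9.09%, against 6.48% of all genes). With DESeq2 2 were higher and 1 lower. Ppargc1a, the coactivator PGC-1alpha, had 8.92, 9.09, 11.2 and 8.21 CPM in E4bp4-LKO livers, against 13.2, 14.2, 13.0 and 10.6 CPM in WT livers. WT mouse 167 lay inside the knockout range (log2 fold change -0.45, SE 0.12, adjusted p = 0.0437, edgeR), and the call was lost in 7 alternative fits, those without WT mice 164 and 165, any 1 of E4bp4-LKO mice 143, 144 and 179, or any 1 of WT mice 164, 165 and 166 (adjusted p up to 0.267). Ppara itself had 519, 491, 681 and 595 CPM in E4bp4-LKO livers, against 375, 482, 529.5 and 538 CPM in WT livers, with overlap, and missed the threshold (log2 fold change 0.25, SE 0.14, adjusted p = 0.273, edgeR). Nr1h4 (the bile acid receptor FXR), Rxra (the partner of PPAR-alpha) and Ncor1 (a corepressor) had log2 fold changes of 0.33, 0.28 and 0.21 and adjusted p of 0.0602, 0.0999 and 0.128 (edgeR).

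Mitochondrial beta-oxidation was read for comparison. Of 20 genes tested, 1 was higher (5.00%, against 4.36% of all genes) and 0 lower with TMM. The median log2 fold change was 0.05, and -0.10 under library totals. The higher gene was Acadsb, the short branched-chain acyl-CoA dehydrogenase of isoleucine breakdown. It had 123, 133, 128 and 137 CPM in E4bp4-LKO livers, against 75.1, 87.7, 94.3 and 101 CPM in WT livers. All knockout livers were above all WT livers (1.45-fold, log2 fold change 0.54, SE 0.09, adjusted p = 0.00727, edgeR). Acss1, Acaa2 and Echs1 missed the threshold (log2 fold change -0.84, 0.21 and 0.18). Of these, Acss1 was on the list although it encodes an acetyl-CoA synthetase, not an enzyme of beta-oxidation itself.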

How the data were processed

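RNA was sequenced from the liver of 8 mice, 4 E4bp4-LKO and 4 WT, grouped by genotype from the labels. Per the submitters' processing notes reads were aligned with HISAT2. The aligner version, quantifier, genome build and strand setting are not stated there. The authors deposited expected counts per gene and FPKM, which scales these counts by transcript length and library. Of the expected counts, 25.9% to 27.3% per library were fractional.

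A gene absent from a file was read as 0, and 26 isoform entries were added to their gene. Expected counts were rounded and tested in edgeR 4.0.16 (R 4.3.3), with filterByExpr (minimum count 10, minimum total 15), TMM, robust quasi-likelihood fits, two-sided tests and Benjamini-Hochberg adjustment over all 13244 genes at 0.05. The SE is the absolute log2 fold change over the square root of F. Alternatives used DESeq2 1.42.0, limma 3.58.1 on log2(FPKM + 1 or 0.1), other scalings and filters, a threshold of 0.1, and fewer mice. No pair of libraries was a copy of another (lowest chi-square per degree of freedom 7.23). The p-values set the difference between groups against the spread between these mice, and treat each mouse as independent. The labels do not say whether mice came from separate litters, and with shared litters or cages the p-values could be too small.

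The members, lists and the naming rule were chosen with earlier results of these data known. The rule gave values in every library for Nfil3, for members past the threshold and for up to 2 others of each class with the smallest p, and up to 4 genes of each further list. Means of other members, and Nudt19, Acaa1a, Agxt, Abcd4, Nnt, Serpina1c, Cyp4a10, Cyp4a14 and Ppara were given outside it, after their values were seen. A planned reading of protein targeting ends was not done. Some genes of the lists are counted but not reported by name here.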

Additional observations from a re-analysis of the deposited data

Results flagged for a closer look

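In 4 of 90 groups of 4 livers, 1 liver lay far from the other 3, with a gap to its nearest neighbour above Dixon's 95% limit for 4 samples. Chance flags about 1 in 20 such groups. Hacl1 stood at 126.8 CPM in E4bp4-LKO mouse 143, against 161.6 to 166.6 CPM in the other E4bp4-LKO livers. Pipox stood at 185.6 CPM in the same mouse, against 223.2 to 224.7 CPM in the others. In WT mouse 164, Pipox stood at 142.7 CPM, against 177.4 to 183.1 CPM in the other WT livers, and Hao1 at 119.6 CPM, against 143.4 to 144.9 CPM. Without E4bp4-LKO mouse 143 Hacl1 passed, Pipox passed as well (adjusted p = 0.0372, edgeR) and Hao1 did not (adjusted p = 0.0577), and without WT mouse 164 Hao1 did not pass (adjusted p = 0.0576) and neither did Pipox (adjusted p = 0.105).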

How the results depend on the processing

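The 7 higher members became 11 with DESeq2, 11 at an adjusted p under 0.1, 2 without WT mice 164 and 165, and 3 to 10 when 1 mouse was left out (3 without WT mouse 165 or E4bp4-LKO mouse 179, 4 without E4bp4-LKO mouse 145). Lower members numbered 2 in place of 1 under library totals and on FPKM with a pseudocount of 1 or of 0.1, and 1 in every fit that left out 1 mouse. Genes called over the whole table numbered 1436, 2238 with DESeq2, 2488 at an adjusted p under 0.1, 387 without WT mice 164 and 165, and 506 to 1539 with 1 mouse left out (506 without E4bp4-LKO mouse 144, 633 without WT mouse 165, 735 and 757 without E4bp4-LKO mouse 145 or 179, 933 without WT mouse 164). The median over the members, 0.22, was 0.0824 under library totals, 0.0585 without WT mice 164 and 165, and 0.12 to 0.29 with 1 mouse left out. Library totals moved the median of all genes by -0.16 and FPKM by -0.12 and -0.14, and Nudt12 turned negative in these 3 fits, at -0.0604, -0.0598 and -0.0619. The cause of these changes was not tested. Nfil3 was lower in every alternative fit. Of the results for named genes, 602 kept direction and side of the threshold, 39 gained it, 49 lost it and 3 reversed. No paired analysis was possible because the groups share no mouse numbers. With 4 mice a group, a member that missed the threshold is not shown to be unchanged, and genes near the floor, such as Dao, were not detectable at this depth.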
